A study of Homo sapiens with 9 samples.

Results

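The MAP kinase phosphatases are the 10 DUSP genes DUSP1, DUSP2, DUSP4, DUSP5, DUSP6, DUSP7, DUSP8, DUSP9, DUSP10 and DUSP16. They were found by gene symbol among the 60675 rows of the deposited count table, and all 10 were present and passed the filter on low counts that left 18009 genes. RNA sequencing measured their mRNA in 9 libraries of the established human melanoma line SK-MEL-5, whose BRAF gene is mutated. The groups were the subclones SC10, SC07 and SC01, with 3 libraries each. Each subclone is a single clone of the same line, expanded from a single cell, and all libraries came from untreated cells, so no group carries a drug or an added allele. Per the labels the clones were chosen for their initial response to PLX-4720, a BRAF inhibitor, and the labels do not state which clone responded how. The comparisons therefore address how these genes differed between clones before treatment.

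MAP kinases carry signals from growth factor and stress receptors to the nucleus, and are switched on by phosphate on a threonine and a tyrosine of their activation loop. The dual-specificity MAP kinase phosphatases remove both phosphates and so end the signal. Some act mainly on ERK, others on the stress kinases JNK and p38, and several are themselves transcribed in response to MAP kinase activity, which makes a negative feedback loop. In melanoma with mutated BRAF, where ERK signalling is constantly driven, the mRNAs of DUSP4 and DUSP6 are commonly read as markers of ERK pathway output.

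Levels are given as CPM (counts scaled to a fixed library total) after TMM scaling of the library totals. Library totals ran from 30224066 to 39454087 counts. Differences are log2 changes of the first clone named over the second, with SE, from edgeR's quasi-likelihood test with Benjamini-Hochberg adjustment over all 18009 genes. A difference was called at an adjusted p under 0.05. Whether replicate libraries stem from separate cultures is not stated in the labels. A p-value here therefore reflects only the library spread within clones, possibly technical, and a batch shared by all libraries of a clone cannot be told apart from the clone. In bulk RNA, fewer cells with a transcript and less of it per cell cannot be told apart either. SC10 replicate 3 differed more from SC10 replicates 1 and 2 (chi-square per degree of freedom of 9.47 and 10.5) than these did from each other (2.47). Leaving it out moved no log2 change of a member by more than 0.161 and changed no call. The share of counts from the mitochondrial chromosome was 10.6% to 11% in SC10, 9.52% to 9.99% in SC07 and 6.89% to 7.02% in SC01, and its part in the results was not tested. Of 7 melanocyte markers, 6 were detected, with a summed level of 15140 to 15360 CPM in SC10, 24330 to 24830 CPM in SC07 and 10720 to 11370 CPM in SC01. SOX10, a defining factor of the lineage, had 0 counts in every library. It lies within the span of POLR2F on the other strand, and how the counting treated overlapping genes is not given in the sources used here, so absence of the transcript and loss of its reads in counting cannot be told apart. The 3 immune markers summed to at most 3.68 CPM, in SC07, and the 3 endothelial markers to at most 10.3 CPM, in SC07. The 4 keratinocyte markers summed to 21.6 to 27.2 CPM over the 9 libraries, with KRT1 at 0. The 6 fibroblast markers summed to 334 to 370 CPM in SC10, 427 to 489 CPM in SC07 and 131 to 137 CPM in SC01. Nearly all of that sum was LUM (350 CPM in SC10, 462 in SC07 and 131 in SC01), while the other 5 each averaged at most 2.70 CPM in a clone, and COL1A1 was lower in SC10 (1.15 CPM) and SC07 (1.2 CPM) than in SC01 (2.04 CPM). The part of these markers in the results was not tested.

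All 10 phosphatases differed among the 3 clones in the joint test, against 76.3% of all genes tested. Between SC10 and SC07, 9 of 10 were called (47.9% of all genes), with 3 higher in SC10 (24.8% of all genes) and 6 lower (23.0%). Between SC10 and SC01, 8 were called (65.9% of all genes), with 4 higher in SC10 (33.5%) and 4 lower (32.4%). Between SC07 and SC01, 9 were called (62.0% of all genes), with 4 higher in SC07 (31.5%) and 5 lower (30.5%). The libraries of the paired clones did not overlap for 9, 8 and 8 members, in the same order, against 53.4%, 69.1% and 67.4% of all genes. The clones differ so widely that a call is common for any gene, so the size and order of the levels carry more than the counts of calls. The median log2 change of the members was -0.21 for SC10 against SC07, -0.09 for SC10 against SC01 and 0.00 for SC07 against SC01, and over all genes it was -0.01 in each. A change of at least 2-fold was seen for 2, 3 and 4 members in these comparisons, against 9.80%, 20.2% and 18.6% of all genes. With libraries scaled by total counts alone, the all-gene median was -0.12 in both comparisons with SC01, and the share of calls that were higher was 41.6% in SC10 and 40.6% in SC07, against 50.8% in both with TMM. No called difference of a member changed direction under that scaling.

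**Figure D1:**
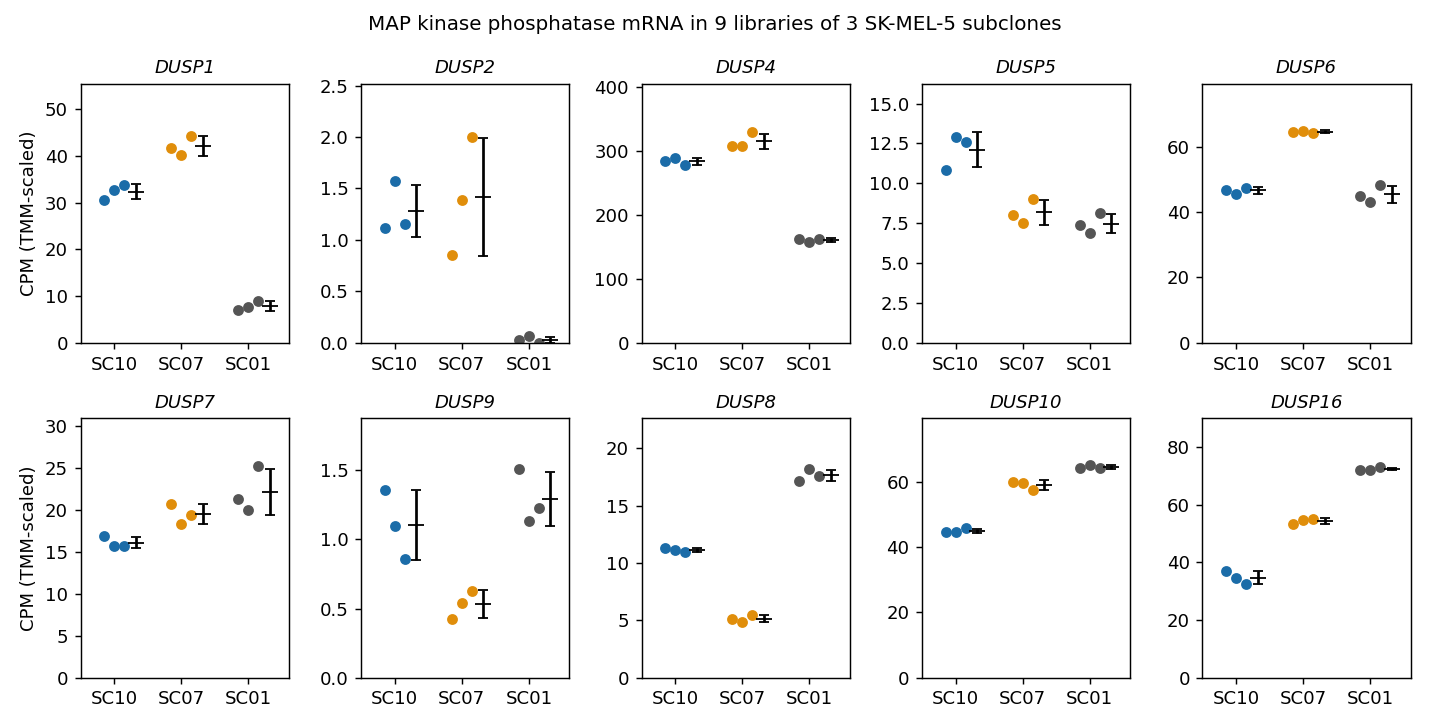
TMM-scaled CPM (y axis, linear from 0, a scale per gene) of the 10 MAP kinase phosphatases in SC10, SC07 and SC01 (x axis), with each point a library and the bar the mean ± SD of 3 libraries. DUSP1, DUSP2 and DUSP4 are lowest in SC01, whereas DUSP8, DUSP10 and DUSP16 are highest there.

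The nuclear, inducible phosphatases DUSP1, DUSP2 and DUSP4 were higher in SC10 and SC07 than in SC01, and DUSP5 was highest in SC10. DUSP1, an early response gene whose product acts on p38, JNK and ERK in the nucleus, lies on chromosome 5 (172768090 to 172771195, minus strand, GRCh38). It stood at 30.7, 32.7 and 33.8 CPM in SC10, 41.8, 40.3 and 44.4 CPM in SC07, and 6.97, 7.61 and 8.97 CPM in SC01. No library of a clone reached into the range of another, with SC07 on top and SC01 far below the others. DUSP1 was 4.13-fold higher in SC10 than in SC01 (log2 change 2.05 ± 0.079, adjusted p = 1.26e-18) and 5.37-fold higher in SC07 than in SC01 (2.43 ± 0.078, adjusted p = 1.86e-20). It was lower in SC10 than in SC07, by -0.38 ± 0.067 (adjusted p = 3.01e-05).

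DUSP2, a nuclear ERK and p38 phosphatase best known from activated lymphocytes, lies on chromosome 2 (96143166 to 96145440, minus strand). It was scarce, at 1.12, 1.57 and 1.15 CPM in SC10, 0.852, 1.39 and 2.0 CPM in SC07, and 0.0274, 0.0632 and 0 CPM in SC01. The SC10 and SC07 libraries overlapped and all lay above those of SC01. Over the 3 libraries of each clone it had 133 counts in SC10, 149 in SC07 and 3 in SC01. The ratio of scaled counts was 39.9 for SC10 over SC01 (exact 95% interval 13.4 to 196) and 44.5 for SC07 over SC01 (14.9 to 218), intervals that cover counting error only. The size depends on single SC01 libraries. Without SC01 replicate 2 the fitted log2 change was 6.16 for SC10 and 6.30 for SC07, against 5.27 and 5.42 with all libraries, and without SC01 replicate 3 it was 4.75 and 4.89, and each passed the test. Both differences from SC01 passed the test (adjusted p = 2.96e-09 and 1.45e-09). SC10 and SC07 were not told apart for DUSP2 (-0.15 ± 0.29, 95% interval -0.74 to 0.44, adjusted p = 0.707), and the sign flipped without SC07 replicate 3, at 0.18. Of the 3 immune markers, PTPRC, the pan-leukocyte phosphatase CD45, stood at 0.734 CPM in SC10, 3.12 in SC07 and 0.172 in SC01 and differed in all 3 comparisons, including SC10 against SC07 (-2.08 ± 0.27, adjusted p = 2.75e-07), where DUSP2 was not called. CD68 averaged at most 0.160 CPM in a clone, and CD3E had 0 counts in SC10, 1 in SC07 and 2 in SC01. Other genes overlap 85.8% of the exon bases of CD68. For CD68 a low level and loss of reads in counting therefore cannot be told apart. The part of the immune markers in the DUSP2 result was not tested.

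The windows just upstream of DUSP1, DUSP2 and DUSP8 are shown because they were the ones among the searched windows of members to hold a motif. RefSeq promoter windows (GRCh38.p14), 250 bases before to 50 after the start, were at hand for 8 members, in 10 windows. DUSP4 and DUSP5 had no window and were not searched. They were searched on both strands for the CRE (TGACGTCA), the AP-1 site (TGANTCA), the ETS site (CCGGAAG) and the E-box (CACGTG), the DNA words bound by CREB, AP-1, ETS and basic helix-loop-helix factors. The words do not overlap each other in these windows, and capitals mark the matches, which are descriptions of letters and not evidence of binding.
DUSP1 (chr5:172771146-172771445, minus strand): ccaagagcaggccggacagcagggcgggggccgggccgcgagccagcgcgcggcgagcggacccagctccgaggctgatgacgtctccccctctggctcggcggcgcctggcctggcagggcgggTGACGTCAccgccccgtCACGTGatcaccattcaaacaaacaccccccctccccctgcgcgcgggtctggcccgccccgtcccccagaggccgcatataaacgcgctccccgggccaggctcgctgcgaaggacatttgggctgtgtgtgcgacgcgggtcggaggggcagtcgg
DUSP2 (chr2:96145391-96145690, minus strand): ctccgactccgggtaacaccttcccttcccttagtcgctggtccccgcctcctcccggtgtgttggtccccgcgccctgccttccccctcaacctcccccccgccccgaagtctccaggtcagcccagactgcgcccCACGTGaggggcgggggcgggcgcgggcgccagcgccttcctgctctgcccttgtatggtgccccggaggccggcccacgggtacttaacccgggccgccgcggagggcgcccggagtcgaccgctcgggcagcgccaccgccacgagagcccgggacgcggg
DUSP8 (chr11:1572222-1572521, minus strand): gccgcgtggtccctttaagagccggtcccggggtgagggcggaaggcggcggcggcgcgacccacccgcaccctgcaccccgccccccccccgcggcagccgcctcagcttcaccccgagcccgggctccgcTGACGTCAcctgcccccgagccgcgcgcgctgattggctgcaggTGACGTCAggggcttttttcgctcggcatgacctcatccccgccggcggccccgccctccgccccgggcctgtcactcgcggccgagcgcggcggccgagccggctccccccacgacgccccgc
The DUSP1 window held a CRE beginning at -125 and an E-box at -108 relative to the start. The DUSP2 window held an E-box at -113. The DUSP8 window held 2 CREs, at -118 and -74. Over all 35116 windows, 1.85% held a CRE, 7.26% an E-box, 7.71% an AP-1 site and 10.3% an ETS site. No searched member window held these AP-1 or ETS letters, which says nothing of DUSP4 and DUSP5. The 2 genes with a CRE had unlike patterns, since DUSP1 was lowest in SC01 and DUSP8 highest there.

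DUSP5, a nuclear phosphatase specific for ERK and induced by it, lies on chromosome 10 (110497838 to 110511544, plus strand). Its levels were 10.8, 12.9 and 12.6 CPM in SC10, 8.03, 7.49 and 9.01 CPM in SC07, and 7.38, 6.92 and 8.14 CPM in SC01. All SC10 libraries were above all others, and the SC07 and SC01 libraries overlapped. DUSP5 was 1.48-fold higher in SC10 than in SC07 (0.57 ± 0.099, adjusted p = 2.54e-05) and 1.62-fold higher in SC10 than in SC01 (0.69 ± 0.10, adjusted p = 7.53e-07). SC07 and SC01 were not told apart (0.13 ± 0.10, 95% interval -0.09 to 0.34, adjusted p = 0.299). DUSP5 thus ordered the clones differently from the other nuclear members.

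DUSP4, a nuclear phosphatase of ERK and JNK, was the most abundant member per exon length in SC10 and SC07. It had 285, 288 and 278 CPM in SC10, 307, 308 and 329 CPM in SC07, and 163, 158 and 161 CPM in SC01. The 3 clones did not overlap, and SC01 held the lowest level by far. DUSP4 was 1.76-fold higher in SC10 than in SC01 (0.82 ± 0.042, adjusted p = 9.35e-16) and 1.96-fold higher in SC07 than in SC01 (0.97 ± 0.042, adjusted p = 2.26e-17). The difference between SC10 and SC07 was small but passed the test (-0.15 ± 0.042, adjusted p = 0.00409).

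The cytoplasmic phosphatases with a preference for ERK did not move as a group. DUSP6, the ERK phosphatase most used as a reporter of ERK activity, lies on chromosome 12 (89347232 to 89353271, minus strand). It stood at 46.8, 45.5 and 47.5 CPM in SC10, 64.6, 64.9 and 64.0 CPM in SC07, and 44.8, 43.1 and 48.2 CPM in SC01. All SC07 libraries were above those of SC10 and SC01, which overlapped. DUSP6 was lower in SC10 than in SC07 (-0.47 ± 0.051, adjusted p = 1.29e-08) and 1.42-fold higher in SC07 than in SC01 (0.51 ± 0.051, adjusted p = 1.25e-09). SC10 and SC01 were not told apart (0.04 ± 0.052, 95% interval -0.07 to 0.14, adjusted p = 0.536), and the sign of that value flipped under scaling by total counts, at -0.07. An antisense gene, AC024909.2, overlaps 40.5% of the exon bases of DUSP6, and whether the counting used strand is not given in the sources used here. AC024909.2 had 7 to 21 counts per library. Reads in the shared bases may have been dropped from both genes, so this number does not bound a loss from DUSP6. The level of DUSP6 per exon length carries the same limit.

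DUSP7, a close relative of DUSP6, lies on chromosome 3 (52048919 to 52056550, minus strand). Its levels were 16.9, 15.7 and 15.8 CPM in SC10, 20.7, 18.3 and 19.4 CPM in SC07, and 21.3, 20.02 and 25.3 CPM in SC01. SC10 lay below both other clones, and the SC07 and SC01 libraries overlapped. DUSP7 was lower in SC10 than in SC01 (-0.46 ± 0.080, adjusted p = 1.19e-05) and than in SC07 (-0.28 ± 0.081, adjusted p = 0.00605). The second call was lost without SC07 replicate 1 (adjusted p = 0.0519, the highest among its alternatives other than a test against a 1.5-fold change, the lowest being 0.00153). SC07 against SC01 was only just called (-0.19 ± 0.079, adjusted p = 0.0404). That call was lost in 6 of 18 alternatives, among them the fits without SC01 replicate 3 (-0.09, adjusted p = 0.339), without SC07 replicate 2 (0.206) and without SC07 replicate 3 (0.0816), in a range of adjusted p from 0.00208 to 1.

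DUSP9, the third member of this class, known for its roles in placenta and insulin-responsive tissues, lies on the X chromosome (153642492 to 153651326, plus strand). It was scarce, at 1.36, 1.10 and 0.856 CPM in SC10, 0.426, 0.541 and 0.626 CPM in SC07, and 1.51, 1.14 and 1.23 CPM in SC01. SC07 lay below both other clones, which overlapped. DUSP9 was 2.08-fold higher in SC10 than in SC07 (1.05 ± 0.29, adjusted p = 0.00318), and SC07 fell below SC01 with a log2 change of -1.28 ± 0.28 (adjusted p = 0.000276). SC10 and SC01 were not told apart (-0.22 ± 0.25, 95% interval -0.75 to 0.30, adjusted p = 0.452). Within this class DUSP6 was thus highest in SC07, where DUSP9 was lowest.

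The phosphatases that prefer JNK and p38, DUSP8, DUSP10 and DUSP16, were all lower in SC10 and in SC07 than in SC01. DUSP8, best known from brain and heart, lies on chromosome 11 (1554044 to 1571920, minus strand). It had 11.3, 11.1 and 11 CPM in SC10, 5.08, 4.89 and 5.49 CPM in SC07, and 17.2, 18.2 and 17.6 CPM in SC01. The clones did not overlap and were evenly spread, with SC10 in the middle. DUSP8 was 2.17-fold higher in SC10 than in SC07 (1.11 ± 0.089, adjusted p = 4.19e-11), lower in SC10 than in SC01 (-0.66 ± 0.079, adjusted p = 3.11e-08), and lower in SC07 than in SC01 (-1.78 ± 0.087, adjusted p = 2.48e-16). A processed pseudogene, DUSP8P5, took 24 to 81 counts per library in the same order of clones, and reads of near-identical copies may be split between them. With the DUSP8 pseudogenes added, the log2 ratios of the mean levels were 1.04, -0.69 and -1.73 for SC10 against SC07, SC10 against SC01 and SC07 against SC01.

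DUSP10, a JNK and p38 phosphatase induced by stress, lies on chromosome 1 (221701424 to 221742176, minus strand). It stood at 44.8, 44.5 and 45.7 CPM in SC10, 60.1, 59.8 and 57.5 CPM in SC07, and 64.2, 65.2 and 64.3 CPM in SC01. The clones did not overlap, although SC07 and SC01 lay close together. DUSP10 was lower in SC10 than in SC07 (-0.39 ± 0.048, adjusted p = 9.60e-08) and than in SC01 (-0.52 ± 0.048, adjusted p = 1.85e-10). The difference of SC07 from SC01 was -0.13 ± 0.047 (adjusted p = 0.0210). It was lost without SC07 replicate 3 (adjusted p = 0.0717), without SC01 replicate 2 (0.0550) and without a filter on low counts (0.0938), in a range from 9.98e-05 to 1 over 18 alternatives.

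DUSP16, which holds JNK and p38 inactive and shuttles between nucleus and cytoplasm, lies on chromosome 12 (12474210 to 12562383, minus strand). It had 37.0, 34.4 and 32.6 CPM in SC10, 53.3, 54.8 and 55.1 CPM in SC07, and 72.0, 72.1 and 72.9 CPM in SC01. The clones did not overlap and were spaced by steps of similar size. DUSP16 was lower in SC10 than in SC01 (-1.06 ± 0.052, adjusted p = 2.58e-16) and than in SC07 (-0.65 ± 0.052, adjusted p = 4.62e-11), and lower in SC07 than in SC01 (-0.41 ± 0.050, adjusted p = 5.20e-08).

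**Figure D2:**
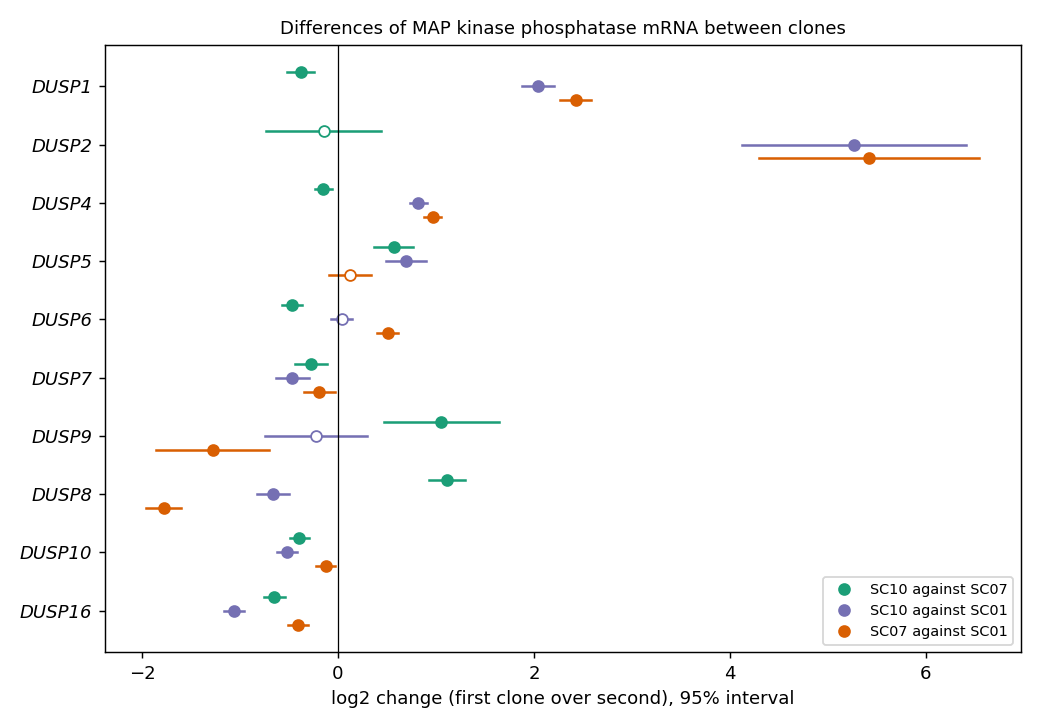
Log2 change with its 95% interval (x axis) of each phosphatase (y axis) for SC10 against SC07, SC10 against SC01 and SC07 against SC01. Filled points passed an adjusted p under 0.05. The values of DUSP2 against SC01 rest on 3 counts there, so its fitted size is not a bound.

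Per exon length, the 10 phosphatases summed to 97.6 ± 0.69 CPM per kb in SC10, 116.6 ± 2.8 in SC07 and 81.7 ± 1.8 in SC01 (SD, n = 3 each), and no clone's libraries overlapped another's. Against SC01, the shares of the nuclear members and of those that prefer JNK and p38 differed more than the sum. Between SC10 and SC07 the sum differed more than these shares. The 4 nuclear members made up 61.9% ± 0.86 of the summed level in SC10 and 58.4% ± 1.3 in SC07, against 35.4% ± 0.26 in SC01. The 3 members that prefer JNK and p38 made up 24.5% ± 0.48 in SC10 and 26.5% ± 0.91 in SC07, against 47.3% ± 1.2 in SC01. These shares do not depend on how libraries are scaled. Their summed level was 23.9 ± 0.31 CPM per kb in SC10, 30.9 ± 0.33 in SC07 and 38.6 ± 0.29 in SC01. The 3 cytoplasmic ERK phosphatases held 13.6%, 15.1% and 17.4% in SC10, SC07 and SC01.

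**Figure D3:**
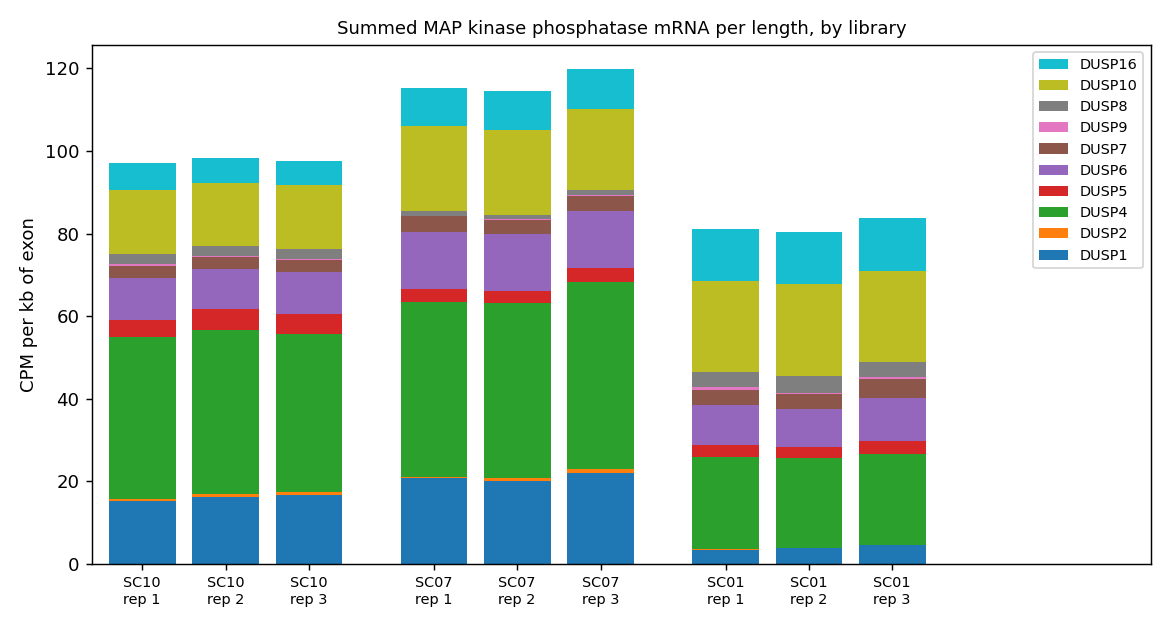
CPM per kb of exon (y axis) of the 10 phosphatases stacked for each of the 9 libraries (x axis). DUSP4 takes 40.02% of the sum in SC10 and 37.2% in SC07 against 27.1% in SC01, where DUSP10 takes the same 27.1%.

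By length-scaled level, DUSP4 led in SC10 (39.1 CPM per kb) and SC07 (43.3), followed in SC10 by DUSP1 (16.04) and DUSP10 (15.4), and in SC07 by DUSP1 (20.9) and DUSP10 (20.3). In SC01, DUSP4 (22.1) and DUSP10 (22.2) stood level within their spread, and DUSP16 (12.6) and DUSP6 (9.80) came next, before DUSP7 (3.93), DUSP1 (3.89) and DUSP8 (3.82), which did not differ beyond their spread. DUSP1 and DUSP10 did not differ beyond their spread in SC10 or in SC07, whereas in SC01 DUSP1 stood sixth, far below DUSP10. DUSP9 and DUSP2 were at the bottom in all clones.

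Among the members, DUSP7 and DUSP10 had the most alike patterns over the 9 libraries, with a root mean square difference of 0.112 in centred log2 CPM, and DUSP2 and DUSP8 the least alike (2.54). By the same measure over 10438 other genes, DUSP1 was nearest to ACP5 (0.0868), TMCC3 (0.108) and TUBB4A (0.128). DUSP4 was nearest to KIAA1522 (0.0397), AK3 and C6orf136. DUSP6 was nearest to GPRC5B (0.0389), CNP and UGCG. DUSP8 was nearest to CTNNA1 (0.0646), PLTP and PRKCH, DUSP10 to STRAP (0.0227), RPN2 and CHMP1B, and DUSP16 to KANK2 (0.0425), SH3TC2 and MGAT5B. DUSP5 was nearest to SELENOS (0.0731), CNPPD1 and MPND, DUSP7 to REXO4 (0.0704), NCOA5 and POLR2J, and DUSP9 to SMAD7 (0.143), PDE4A and CHAC1. DUSP2 had no close match, its nearest being CCSER1 (0.353), PPARGC1A and SMAD9. With 3 clones this is a likeness of 3 levels, and it is given as a description.

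The targets of these enzymes, the 10 MAP kinases, were tested in the same fit. In SC10 against SC07, 5 were higher and 1 lower (24.8% and 23.0% of all genes tested). In SC10 against SC01, 6 were higher and 4 lower (33.5% and 32.4% of all genes). In SC07 against SC01, 3 were higher and 3 lower (31.5% and 30.5% of all genes). The same shares over all genes apply to the counts of every list that follows, and no list was tested as a set. MAPK14, the main p38 kinase, was lower in SC10 (46.3 CPM) and SC07 (55.9 CPM) than in SC01 (74.8 CPM), with log2 changes of -0.69 ± 0.050 and -0.42 ± 0.049 (adjusted p = 1.38e-12 and 2.58e-08). That is the order of clones seen for DUSP16. MAPK12, another p38 kinase, had the opposite order, at 34.5 CPM in SC10, 25.4 in SC07 and 21.0 in SC01. MAPK8, which encodes JNK, was 0.70 ± 0.10 higher in SC10 than in SC01 on the log2 scale, and 0.35 ± 0.10 higher in SC07 than in SC01. MAPK3, an ERK gene, differed little, at 62.9 CPM in SC10, 56.8 in SC07 and 54.1 in SC01. The p38 gene MAPK11 was higher in SC10 (35.0 CPM) than in SC07 (25.7) and SC01 (26.4), while MAPK9, a JNK gene, and MAPK7, the ERK relative, moved by at most 0.25 in size on the log2 scale. MAPK13 and MAPK10 were scarce, at 1.14 CPM or below in every clone.

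Of the 7 kinases that activate MAP kinases, 0 were higher and 4 lower in SC10 against SC07, 3 higher and 1 lower in SC10 against SC01, and 5 higher and 1 lower in SC07 against SC01. The largest changes were in MAP2K4, which activates JNK and p38, at 43.0 CPM in SC10, 49.4 in SC07 and 28.2 in SC01 (SC07 against SC01 0.81 ± 0.054, adjusted p = 3.05e-13), and in MAP2K6, which activates p38, at 16.8, 23.6 and 14.2 CPM in the same clones. MAP2K4 and MAP2K6 were thus lowest in SC01, where the phosphatases that prefer JNK and p38 were highest. MAP2K3 did not share this, at 133 CPM in SC10, 139 in SC07 and 134 in SC01, with no comparison called. Nor did MAP2K7, at 56.9, 63.9 and 57.4 CPM, where SC10 and SC01 were not told apart. Of 8 scaffolds tested, 4 were higher and 3 lower in SC10 against SC07, 4 higher and 2 lower in SC10 against SC01, and 4 higher and 3 lower in SC07 against SC01. MAPK8IP2, a JNK scaffold, stood at 59.8 CPM in SC10, 24.3 in SC07 and 56.6 in SC01, with SC10 1.30 ± 0.052 above SC07 on the log2 scale (adjusted p = 1.17e-17). Like DUSP8 and DUSP9, it was lowest in SC07.

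Of 7 other phosphatases of MAP kinases tested, 1 was higher and 4 lower in SC10 against SC07, 2 higher and 3 lower in SC10 against SC01, and 3 higher and 3 lower in SC07 against SC01. PTPRR, a tyrosine phosphatase of ERK and p38, had 0.272, 0.208 and 0.502 CPM in SC10, 8.55, 7.31 and 7.04 CPM in SC07, and 0.302, 0.411 and 0.538 CPM in SC01. It was therefore largely a transcript of SC07, at 4.19 ± 0.22 above SC01 on the log2 scale (adjusted p = 1.16e-15), with SC10 below SC07 at -4.53 ± 0.23 (adjusted p = 1.71e-15). The atypical dual-specificity phosphatases, mostly small relatives without the MAP kinase binding domain, were tested for 12 of 15 genes. In SC10 against SC07, 1 was higher and 2 lower, in SC10 against SC01 4 were higher and 1 lower, and in SC07 against SC01 5 were higher and 2 lower. DUSP22 stood at 54.7 CPM in SC10, 54.8 in SC07 and 82.6 in SC01, and DUSP15 at 12.7, 14.8 and 7.53 CPM in the same clones. The median log2 change of these 12 genes lay between -0.03 and 0.06 in the 3 comparisons.

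**Figure D4:**
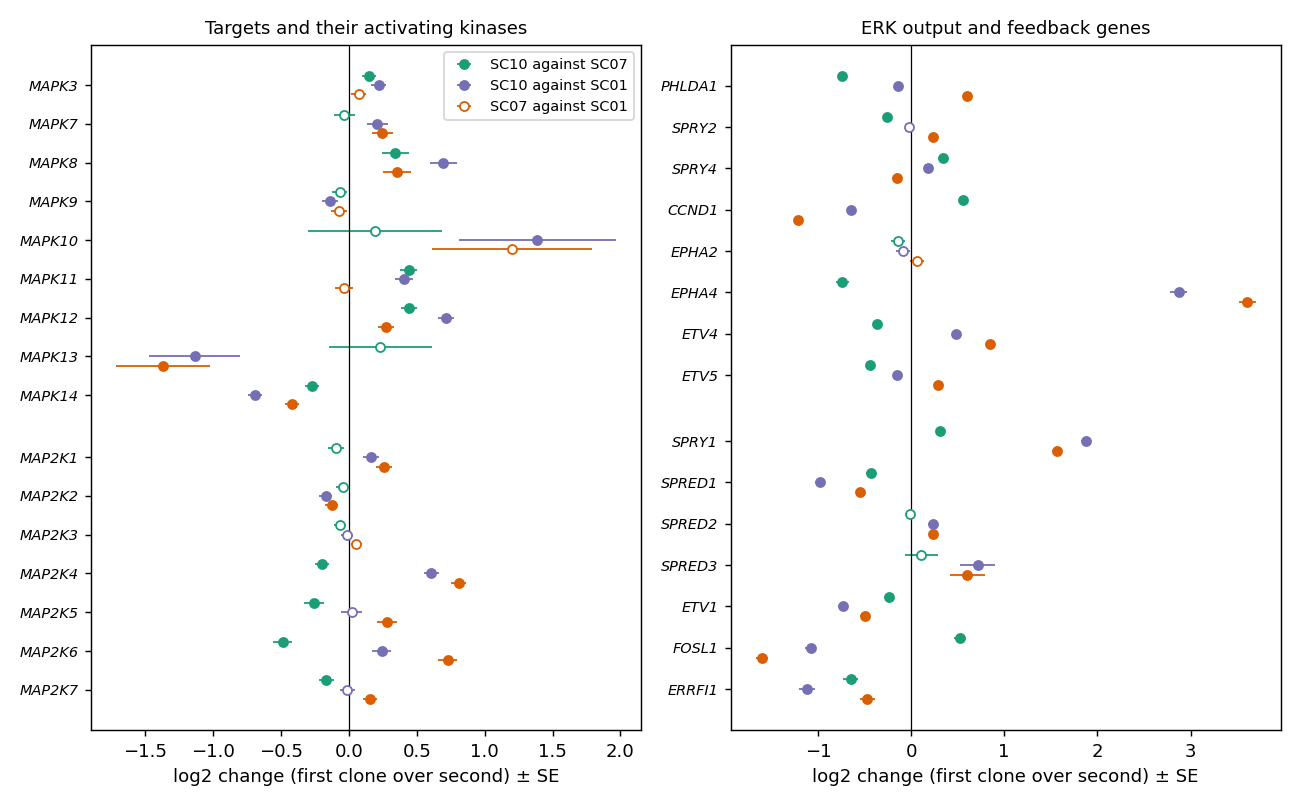
Log2 change ± SE (x axis) of named MAP kinases and their activating kinases (left) and of ERK output and feedback genes (right) for SC10 against SC07, SC10 against SC01 and SC07 against SC01. Filled points passed an adjusted p under 0.05. EPHA4 has the largest change on the right, at 3.61 for SC07 against SC01.

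Other genes read as ERK pathway output did not follow a single order. Of 8 such genes, 2 were higher and 5 lower in SC10 against SC07, 3 higher and 3 lower in SC10 against SC01, and 5 higher and 2 lower in SC07 against SC01. PHLDA1 (345 CPM in SC10, 576 in SC07, 380 in SC01) and ETV5 (131, 178 and 146 CPM) were highest in SC07, as DUSP6 was. SPRY4, an inhibitor of receptor signalling, was lowest in SC07, at 94.3 CPM in SC10, 74.5 in SC07 and 83.0 in SC01 (SC10 against SC07 0.34 ± 0.049, adjusted p = 1.83e-06). EPHA4, a receptor tyrosine kinase, had the order of DUSP1, at 26.8 CPM in SC10, 44.8 in SC07 and 3.66 in SC01. CCND1, the cyclin of the G1 phase, had 208 CPM in SC10, 141 in SC07 and 326 in SC01, so that it was lowest where DUSP6 was highest (SC07 against SC01 -1.21 ± 0.042, adjusted p = 1.26e-19). Of 7 further feedback genes, 2 were higher and 3 lower in SC10 against SC07, and 3 were higher and 4 lower in both comparisons with SC01. SPRY1, a relative of SPRY4, stood at 87.8 CPM in SC10, 70.6 in SC07 and 23.9 in SC01, while FOSL1, an AP-1 subunit, stood at 23.9, 16.7 and 50.5 CPM.

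DUSP1 is also known as an immediate-early gene, as a target of CREB and as a target of the glucocorticoid receptor, and lists of other such genes were set beside it. Of 26 other immediate-early genes, 14 were higher and 3 lower in SC10 against SC07, 8 higher and 15 lower in SC10 against SC01, and 2 higher and 19 lower in SC07 against SC01, with medians of 0.49, -0.27 and -0.63 on the log2 scale. DUSP1, at -0.38, 2.05 and 2.43, was opposite in sign to these medians in all 3 comparisons. FOS, an AP-1 subunit, was lowest in SC01, as DUSP1 was, at 49.9 CPM in SC10, 34.6 in SC07 and 26.0 in SC01. JUN, another AP-1 subunit, stood at 4.21 CPM in SC10, 4.71 in SC07 and 34.1 in SC01, and CYR61, a matricellular protein gene, at 1.6, 0.744 and 6.01 CPM in the same clones. EGR1, a zinc finger factor, stood at 5.67 CPM in SC10, 2.62 in SC07 and 3.35 in SC01. Of 8 tested glucocorticoid response genes, 3 were higher and 2 lower in SC10 against SC07, 3 higher and 5 lower in SC10 against SC01, and 2 higher and 6 lower in SC07 against SC01. KLF9 (18.1 CPM in SC10, 11.8 in SC07, 116 in SC01), MT2A (8.82, 13.9 and 70.0 CPM) and TSC22D3 (8.67, 9.11 and 34.6 CPM) were all highest in SC01, where DUSP1 was lowest. The list was split, since FKBP5 (36.4, 33.9 and 25.6 CPM) and PER1 (36.5, 35.2 and 24.9 CPM) were lowest in SC01, as DUSP1 was. SGK1 had 319 CPM in SC10, 114 in SC07 and 178 in SC01.

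Of 9 CREB and cAMP response genes, 6 were higher and 0 lower in SC10 against SC07, 6 higher and 2 lower in SC10 against SC01, and 3 higher and 3 lower in SC07 against SC01. PPARGC1A, a coactivator of mitochondrial gene transcription, had 433 CPM in SC10, 468 in SC07 and 30.1 in SC01 and was 3.84 ± 0.056 higher in SC10 and 3.96 ± 0.057 higher in SC07 than in SC01 on the log2 scale (adjusted p = 6.23e-28 and 2.05e-28). It shared with DUSP1 and DUSP2 a low level in SC01. CREM, a CRE-binding factor, stood at 144 CPM in SC10, 96.9 in SC07 and 59.5 in SC01, and the nuclear receptor gene NR4A3 at 172, 84.4 and 83.5 CPM. This list was split as well, since PDE4B (57.2, 40.1 and 63.9 CPM) and SIK1 (1.12, 1.155 and 3.15 CPM) were highest in SC01. The SC01 mean of SIK1 was raised by replicate 2, at 5.87 CPM beside 1.81 and 1.76 CPM.

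The genes lying next to each member were read from the same fit. For the 20 nearest tested protein-coding genes, 10 on each side, the median log2 change in SC10 against SC01 was -0.73 around DUSP16, where 14 of 20 were lower and 5 higher and DUSP16 itself was at -1.06. Around DUSP4 it was 0.42, with 15 of 20 higher and 1 lower, and DUSP4 itself was at 0.82. In SC07 against SC01 the neighbours of DUSP4 were at 0.32 and DUSP4 at 0.97, but in SC10 against SC07 they ran the other way, at 0.19 (10 higher, 4 lower) beside -0.15 for DUSP4. Around DUSP6 the neighbours' median was -0.35 in SC10 against SC07 (10 lower, 4 higher), with DUSP6 at -0.47. By contrast the neighbours of DUSP1 had medians of -0.05, 0.06 and 0.09 in SC10 against SC07, SC10 against SC01 and SC07 against SC01. Those of DUSP8 had 0.28 (11 higher, 2 lower), 0.09 and -0.02. Those of DUSP2 had -0.09, 0.27 (12 higher, 4 lower) and 0.30 (11 higher, 4 lower). The members' values were -0.38, 2.05 and 2.43 for DUSP1, 1.11, -0.66 and -1.78 for DUSP8, and -0.15, 5.27 and 5.42 for DUSP2. In SC10 against SC07 the DUSP8 neighbours thus lay on the side of DUSP8. Over all genes tested, 24.8% were higher and 23.0% lower in SC10 against SC07. The shares were 33.5% and 32.4% in SC10 against SC01, and 31.5% and 30.5% in SC07 against SC01. The neighbours of DUSP10 had medians of 0.12, 0.14 and 0.09, opposite in sign to DUSP10 in all 3 comparisons. DNA copy number was not analysed here, and the part of the region in these results was not tested.

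**Figure D5:**
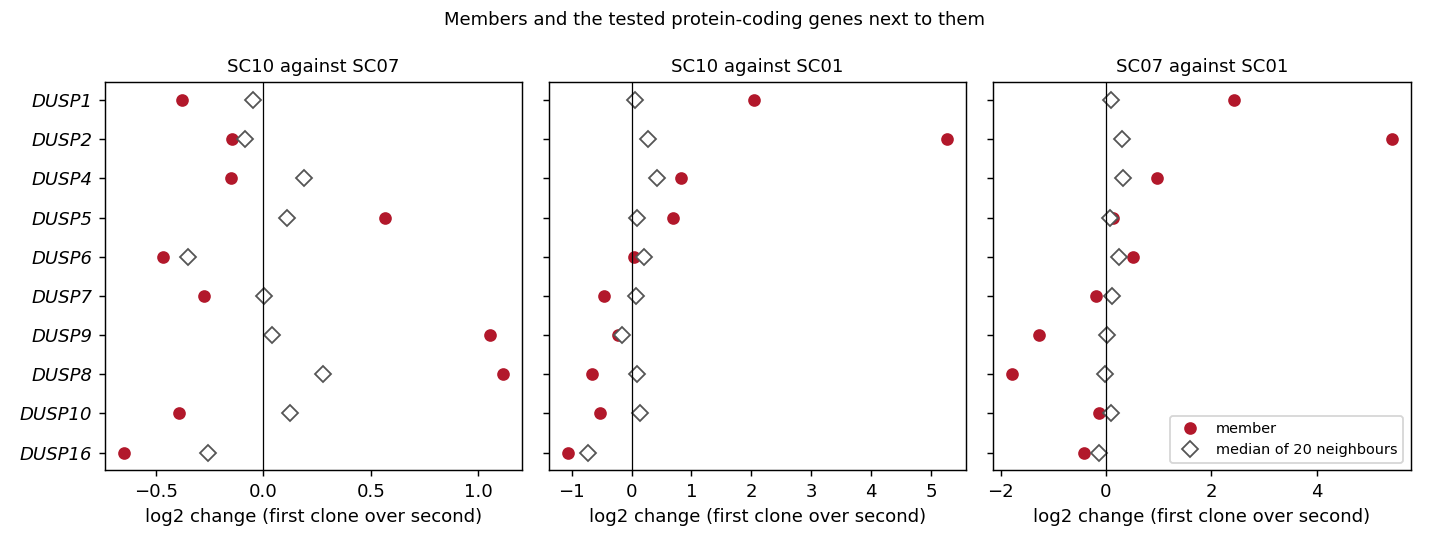
Log2 change (x axis) of each phosphatase (filled circles) and the median of its 20 nearest tested protein-coding genes (open diamonds), for SC10 against SC07, SC10 against SC01 and SC07 against SC01. In SC10 against SC01 the diamond of DUSP16 stands at -0.73 beside -1.06 for the gene, and that of DUSP1 at 0.06 beside 2.05.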

How the data were processed

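RNA was sequenced from 9 libraries of untreated SK-MEL-5 subclones, 3 each of SC10, SC07 and SC01, assigned by their labels. The authors deposited raw counts per Ensembl gene, made with HISAT2, featureCounts and GRCh38 per the submitters' processing notes. Not given in the sources used here are their versions, the annotation release and the treatment of strand and multiply matching reads, any of which can change the counts of overlapping genes and near-identical copies. Names, positions and merged exon lengths came from GENCODE 29, which held 57055 of 60675 IDs, and promoter windows from RefSeq (GRCh38.p14).

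The filter was filterByExpr and the scaling TMM. All 9 libraries entered a robust quasi-likelihood fit with a mean per clone and no covariate (edgeR 4.0.16, R 4.3.3). SE is the log2 change divided by the square root of F, and is too small where a clone has few counts. Members and lists were chosen with earlier results of these data known. Described genes are all members, the MAP kinases, of which 1 is not reported here, and from each other list up to 4 genes with the largest called changes and at least 1 CPM, of which not all are named. Alternatives were other scalings and filters, DESeq2 1.42.0, limma-voom (limma 3.58.1), a fit per pair, a test against a 1.5-fold change, a replicate block and leaving out each library. The calculations were tested on simulated data. Protein sequences were not used here. Each library was counted as its own replicate. Within clones the chi-square per degree of freedom was 2.47 to 10.5 (between clones at least 55.0). These values show more spread than counting alone gives, but not whether the libraries are separate cultures.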

Additional observations from a re-analysis of the deposited data

How the results depend on the processing

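Over 18 alternatives and 30 differences of single members, 515 values stayed on their side of the threshold, 25 lost the call and 0 reversed a call. Among differences that were not called, 2 values changed sign (DUSP2 in SC10 against SC07 and DUSP6 in SC10 against SC01). Besides a test against a 1.5-fold change, the lost calls were of DUSP7 and DUSP10. Against a 1.5-fold change, members higher and lower were 1 and 0 in SC10 against SC07 (3 and 6 in the test against no change), 3 and 1 in SC10 against SC01 (4 and 4), and 3 and 2 in SC07 against SC01 (4 and 5). In that test the pathway lists gave 11 higher and 3 lower genes in SC10 against SC07 (35 and 26), 10 and 18 in SC10 against SC01 (39 and 39), and 9 and 19 in SC07 against SC01 (34 and 44), and all genes gave 1444, 4192 and 3703 calls (8620, 11864 and 11162). Members lower in SC07 against SC01 were 3 without a filter on low counts, and 3 to 5 on leaving out a library. Scaled by total counts, the summed level was 95.1 CPM per kb in SC10 and 85.9 in SC01 (97.6 and 81.7 with TMM). Whether the labels' replicate numbers pair the libraries was not settled. Deviations of same-numbered libraries correlated at -0.0195 to 0.0429, and a library correlated best with its own number in 10 of 18 cases. The deviations were centred on the 3 libraries of each clone, which limits what these values can show. A replicate block gave 8754, 11926 and 11249 calls over all genes and changed no call of a member, with 3 higher and 6 lower in SC10 against SC07. Depth limits DUSP2 in SC01, where 3 counts in a library are 0.0874 to 0.0993 CPM.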

Other observations

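The AUUUA pentamer, a sequence element known from mRNAs with a short life, was counted in the 3′ UTRs of the members' GENCODE transcripts after the expression values had been seen. DUSP1 held 4 in a UTR of 672 bases, or 5.95 per kb, a density above that of 93.8% of 12561 genes. DUSP2 held 3 in 657 bases (4.57 per kb, above 87.9% of genes) and DUSP10 held 3 in 988 bases (3.04 per kb). The median gene held 1.66 per kb. DUSP16 (5 in 2623 bases), DUSP8 (4 in 2474 bases) and DUSP4 (6 in 3962 bases) had densities near it, DUSP6 and DUSP9 had 1 each, and DUSP5 and DUSP7 had 0. By number rather than density, DUSP1 stood above 65.1% of genes and DUSP2 above 57.6%, below DUSP4 (75.5%) and DUSP16 (70.8%), so the high densities go with short UTRs. RNA stability was not measured in these libraries.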
